A study of Homo sapiens with 9 samples.

Results

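Transcript levels of 10 enzymes that build serine, one-carbon units, asparagine and proline were followed in SKMEL-147, a human melanoma cell line. The genes were PHGDH, PSAT1 and PSPH (serine), SHMT1, SHMT2, MTHFD2 and MTHFD1L (one-carbon units carried on folate), ASNS (asparagine), and ALDH18A1 and PYCR1 (proline). They were taken by symbol from the deposited table of normalized read counts, which is the raw table of 57736 gene rows after scaling, and all 10 were among the 14614 genes that passed the filter on low counts. The genes were chosen by pathway role with the fold changes of both guides against the control in these libraries known, so the values against the control are given as a description and carry no test of the list.

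Total RNA depleted of ribosomal RNA was sequenced from 9 libraries of cells that stably express the nuclease Cas9 and had been transduced with lentivirus carrying a single guide RNA. Each of the 3 groups had 3 libraries, lettered A to C, and the groups differed only in the guide: a scrambled guide (sgScr, the control) or either of 2 guides against PHF8 (sgPHF8-1 and sgPHF8-3). PHF8 encodes a Jumonji C histone demethylase. The cells were transduced populations, not single clones, and all groups, the control included, carried Cas9 and a guide. The question was how the transcriptome changes when PHF8 is targeted.

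Serine is made from a glycolytic intermediate in 3 steps by PHGDH, PSAT1 and PSPH. The serine hydroxymethyltransferases SHMT1 (cytosol) and SHMT2 (mitochondria) then pass a carbon of serine to folate, and MTHFD2 and MTHFD1L carry that unit through the mitochondria to formate, which is used for purine and thymidylate synthesis. ASNS makes asparagine from aspartate and glutamine, while ALDH18A1 and PYCR1 catalyse the opening and closing steps of proline synthesis from glutamate. Many of these genes are known targets of the transcription factor ATF4, which is translated when amino acids run short or the endoplasmic reticulum is stressed. In melanoma, PHGDH is known for copy number gain.

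Promoter windows that hold either of 2 short motifs are shown first. The RefSeq table of promoters (GRCh38.p14, 250 bases before to 50 after each start) had an entry for 7 of the 10 genes; PSPH, SHMT2 and PYCR1 were not among them. TGATGNAA, the core of the element bound by C/EBP and ATF factors, was searched on both strands and occurred in 2 of the 7, ASNS and MTHFD1L. Among all 27305 genes of that table, 4.46% held it. CACGTG, the palindromic E-box bound by MYC family proteins, occurred in MTHFD1L and ALDH18A1, against 8.77% of all genes. The motif stands in capitals, each window reads 5′ to 3′ on the strand of its gene, and its position was found by exact match in GRCh37, the build of the count tables (hg19).
ASNS, chr7:97501770-97501799, minus strand: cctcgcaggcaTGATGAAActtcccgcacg
MTHFD1L, chr6:151187482-151187511, plus strand: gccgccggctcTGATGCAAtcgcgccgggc
MTHFD1L, chr6:151187456-151187485, plus strand: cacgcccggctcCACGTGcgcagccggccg
ALDH18A1, chr10:97416587-97416616, minus strand: gggctggcccgcCACGTGgagcgctggctt
The capitals begin at -68 from the RefSeq start in ASNS, at -129 and -154 in the MTHFD1L windows and at -136 in ALDH18A1. The ASNS and MTHFD1L windows also overlap exons of other annotated transcripts of the same gene. Of 2 listed ASNS promoters 1 held TGATGNAA, and of 4 listed MTHFD1L promoters 3 held each motif. ASNS was the gene of the 10 with the greatest difference from sgScr and ALDH18A1 was near zero, with MTHFD1L, which held both motifs, lowest of the 8 genes called higher (values with each gene). Of the 4 genes whose listed promoters held neither motif, MTHFD2, PSAT1 and PHGDH differed more than MTHFD1L, and SHMT1 was not called with either guide (log2 -0.08 and 0.02). A match is a run of letters only. The genes were chosen with these differences known, and a link between motif and difference was not tested.

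Libraries held between 17366100 and 19838100 counts assigned to genes. The 3 sgScr libraries were the deepest (at least 19446900, against at most 19019100 in the guide libraries). Depth therefore moved with the groups, and its part in the results was not tested beyond the scaling. The 10 enzymes took 0.0914% to 0.0940% of counts in sgScr and 0.107% to 0.111% in the guide libraries. None of the 9 pairs of libraries within a group agreed within sampling noise, so none was counted as a duplicate. The library sgPHF8-1 B stood apart from its companions: the chi-square per degree of freedom was 2.88 and 3.79 against them and 1.77 between them (1.31 to 2.97 in the other groups), it had 22427 genes detected against at least 23035 in the other libraries, and its TMM factor was the lowest (0.980). It also had the highest mean level of the 10 enzymes, a centred log2 value of 0.13 against 0.06 and 0.04 in sgPHF8-1 A and C. Without it 6 of the enzymes were called with sgPHF8-1, PSPH and PYCR1 no longer, and the log2 fold changes of ASNS and MTHFD2 were 0.63 and 0.41. Identity of the cells was read from markers: SOX10 lay between 2369 and 2830 normalized counts and AXL between 27146 and 29594, NGFR at 11455 to 11971 in sgScr, 6999 to 7311 in sgPHF8-1 and 9052 to 9947 in sgPHF8-3, whereas the pigment genes MLANA and TYR were at 0 in all 9 libraries and PMEL did not exceed 11.2. Summed over the 7 melanocyte lineage markers, most of it SOX10, the level was 2956 to 3096 in sgScr, 2609 to 2761 in sgPHF8-1 and 2820.2 to 2883 in sgPHF8-3. MITF averaged 253, 229 and 279 in the same order, so it was highest in sgPHF8-3. The sum over 4 markers of dedifferentiated melanoma was 41537 to 42254, 36614 to 37791 and 40616 to 41691 in the same order. Within it the means were 11693, 7199 and 9570 for NGFR and 27921, 27638 and 29234 for AXL. They were 1963, 1864 and 2113 for EGFR and 287, 341 and 304 for SOX9. NGFR was thus lower with both guides, whereas AXL, EGFR and SOX9 were higher in sgPHF8-3 than in sgScr. The sum over 3 neural crest markers, most of it NES, was 12625 to 13285, 9459 to 10463 and 10102 to 10979. Markers of other cells were low throughout, with sums of 13.4 to 44 for 3 epithelial genes (38.1 to 44 in sgScr, most of it KRT14), 5.29 to 13.1 for 3 blood genes (CD3E at 0) and 0.929 to 9.22 for the endothelial gene VWF. The part of these marker differences in the results was not tested.

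The targeted gene was lower with both guides, and unequally so. PHF8 stood at 655, 606 and 634 normalized counts in sgScr A to C, at 564, 571 and 565 in sgPHF8-1, and at 399.8, 387 and 434 in sgPHF8-3. The groups did not overlap. The log2 fold change was -0.16 ± 0.0536 (SE) for sgPHF8-1 (adjusted p = 0.0272) and -0.63 ± 0.0566 for sgPHF8-3 (adjusted p = 6.36e-09), and the guides differed from each other by 0.48 (adjusted p = 3.86e-06; edgeR quasi-likelihood test, Benjamini-Hochberg over all genes). The sgPHF8-1 call was lost with DESeq2 (adjusted p = 0.103) and, at up to 0.118, in 4 of the fits that left out a library. Transcript level does not measure how many alleles were edited.

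Against sgScr, 8 of the 10 enzyme genes rose with each guide and the same 8 did so with both: PHGDH, PSAT1, PSPH, SHMT2, MTHFD2, MTHFD1L, ASNS and PYCR1. None was called lower, and none of the 10 had a negative difference at an unadjusted p under 0.05; DESeq2 and limma also called 0 lower. Called means an adjusted p under 0.05 in the edgeR fit over all 14614 genes. In that fit 15.2% of all genes were called higher with sgPHF8-1 (30.9% in either direction), and 9.48% with sgPHF8-3 (19.3% in either direction). The median log2 fold change of the 10 genes was 0.20 with sgPHF8-1 and 0.23 with sgPHF8-3, beside medians of 0.00028 and -0.00076 over all genes tested. Since both comparisons use the same 3 sgScr libraries, they are given side by side and their likeness is not a second observation. In RNA from a whole culture, a change in the share of cells of one state cannot be told apart from a change in RNA per cell.

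**Figure D1:**
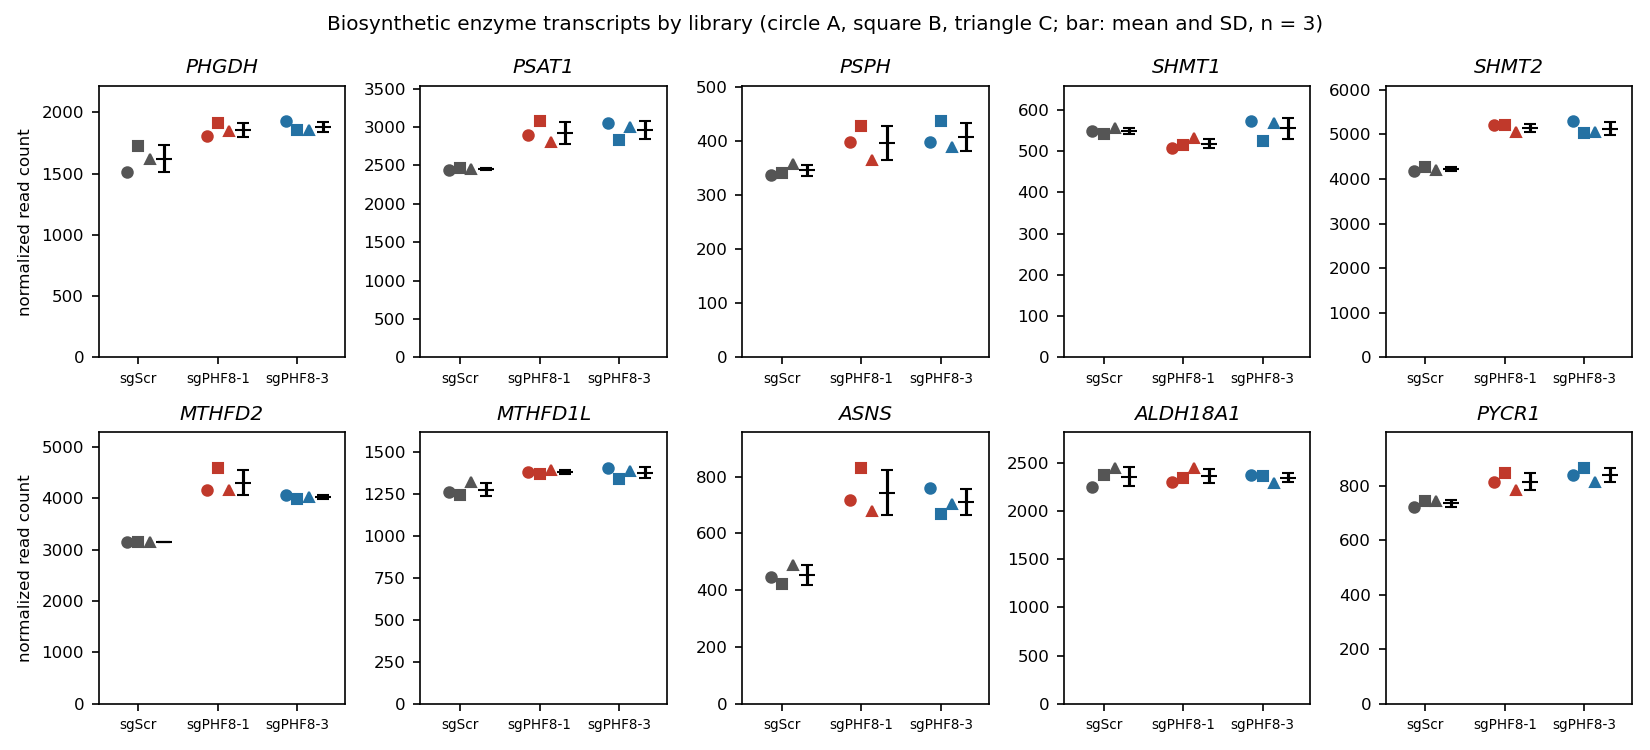
Normalized read counts (y axes, from 0) of the 10 enzyme genes in every library of sgScr, sgPHF8-1 and sgPHF8-3 (x axes; circle A, square B, triangle C), with the mean and SD of 3 libraries as a black bar. ASNS and MTHFD2 show the widest gap between the control and both guides, and ALDH18A1 shows none.

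ASNS (asparagine synthetase, chr7:97480989-97501854, minus strand) had the greatest difference of the 10. Its normalized counts were 447, 421 and 489.9 in sgScr A to C, 719, 831 and 679 in sgPHF8-1, and 758, 669 and 703 in sgPHF8-3. Every guide library lay above every control library, and sgPHF8-1 B was the highest of the 9. The log2 fold change was 0.71 (95% interval 0.57 to 0.85), or 1.64-fold, with sgPHF8-1. With sgPHF8-3 it was 0.65 (0.51 to 0.79), or 1.57-fold. By absolute log2 fold change ASNS ranked 409 of the 14614 genes with sgPHF8-1 and 368 with sgPHF8-3.

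MTHFD2 and SHMT2, both enzymes of the mitochondrial arm of one-carbon metabolism, came next. MTHFD2 (methylenetetrahydrofolate dehydrogenase of the mitochondria, chr2:74413299-74444692) gave 3147, 3140.5 and 3154 normalized counts in sgScr A to C, 4165, 4589 and 4159 in sgPHF8-1, and 4071, 3981 and 4019 in sgPHF8-3. The coefficient of variation of the control libraries was 0.214%, and sgPHF8-1 B stood above its 2 companions. MTHFD2 rose 1.37-fold with sgPHF8-1 (log2 0.45, 95% interval 0.38 to 0.52) and 1.28-fold with sgPHF8-3 (0.35, 0.28 to 0.42). SHMT2 (mitochondrial serine hydroxymethyltransferase, chr12:57623356-57628718) was the most abundant of the 10, at 4181, 4276 and 4211 in sgScr, 5202, 5207 and 5049.9 in sgPHF8-1, and 5291, 5037 and 5049 in sgPHF8-3. Its log2 fold change was 0.29 (0.22 to 0.35) with sgPHF8-1 and 0.28 (0.22 to 0.34) with sgPHF8-3, about 1.2-fold with either guide. MTHFD1L (mitochondrial formyltetrahydrofolate synthetase, chr6:151186815-151423023) moved least among the 8, from 1248 to 1321 in sgScr to 1372 to 1392 in sgPHF8-1 and 1342 to 1407 in sgPHF8-3. That is 1.08-fold with each guide (log2 0.11 and 0.11).

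SHMT1 (the cytosolic hydroxymethyltransferase, chr17:18231174-18266877, minus strand) did not follow SHMT2. It gave 548, 542 and 556 normalized counts in sgScr A to C, 509, 516 and 531 in sgPHF8-1, and 572, 526 and 569 in sgPHF8-3. The sgPHF8-1 libraries all lay below the control libraries, whereas those of sgPHF8-3 lay on both sides. Neither difference passed the threshold (log2 -0.08, 95% interval -0.19 to 0.03 with sgPHF8-1; 0.02, -0.09 to 0.13 with sgPHF8-3). Within a library, the ratio of SHMT2 to SHMT1 counts was 7.57 to 7.89 in sgScr, 9.51 to 10.2 in sgPHF8-1 and 8.88 to 9.58 in sgPHF8-3. The ratio of MTHFD2 to MTHFD1L was 2.39 to 2.52 in sgScr, 2.99 to 3.35 in sgPHF8-1 and 2.89 to 2.97 in sgPHF8-3. For both ratios the control libraries lay below every guide library. The genes were chosen with their fold changes known, no ratio was tested, and no share over other gene pairs was computed.

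The 3 enzymes of the serine pathway itself were measured next. PHGDH (phosphoglycerate dehydrogenase, the entry enzyme, chr1:120191034-120286841) gave 1512, 1729 and 1623 normalized counts in sgScr A to C, 1804, 1912 and 1852 in sgPHF8-1, and 1927, 1856 and 1856 in sgPHF8-3. PSAT1 (phosphoserine aminotransferase, chr9:80912041-80945009) gave 2445, 2468 and 2450.5 in sgScr, 2896, 3072 and 2798 in sgPHF8-1, and 3048, 2828 and 3000.1 in sgPHF8-3. PSPH (phosphoserine phosphatase, chr7:56078744-56119297, minus strand) was the least abundant of the 10, between 337 and 357 in sgScr, 365 and 427 in sgPHF8-1, and 388 and 436 in sgPHF8-3. For each of the 3 genes the control libraries lay below every guide library, with PHGDH the most variable of them in sgScr (coefficient of variation 6.71%, against 0.497% for PSAT1).

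Log2 fold changes in the pathway were 0.19 (95% interval 0.11 to 0.28) and 0.21 (0.13 to 0.30) for PHGDH with sgPHF8-1 and sgPHF8-3. They were 0.25 (0.18 to 0.32) and 0.27 (0.20 to 0.34) for PSAT1. For PSPH they were 0.20 (0.06 to 0.34) and 0.24 (0.10 to 0.38), the widest intervals of the 3. The ratio of PSAT1 to PHGDH (1.43 to 1.62 in sgScr, 1.51 to 1.61 in sgPHF8-1, 1.52 to 1.62 in sgPHF8-3) and that of PSPH to PHGDH overlapped between all groups.

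In proline synthesis the pair split. ALDH18A1 (which makes the glutamate semialdehyde precursor, chr10:97365698-97416468, minus strand) gave 2252, 2369 and 2445 normalized counts in sgScr A to C, 2297, 2342 and 2446 in sgPHF8-1, and 2376, 2363 and 2289.7 in sgPHF8-3, with full overlap. Its log2 fold change was 0.00 (95% interval -0.07 to 0.08) with sgPHF8-1 and -0.01 (-0.08 to 0.07) with sgPHF8-3. PYCR1 (mitochondrial pyrroline-5-carboxylate reductase, chr17:79890260-79900288, minus strand) lay between 720.2 and 743 in sgScr, 785 and 848 in sgPHF8-1, and 812 and 865 in sgPHF8-3. It rose by 0.15 (0.05 to 0.24) and 0.19 (0.10 to 0.28) on the log2 scale. The ratio of PYCR1 to ALDH18A1 was 0.304 to 0.320 in sgScr, 0.321 to 0.362 in sgPHF8-1 and 0.353 to 0.366 in sgPHF8-3, with the sgPHF8-1 and sgScr ranges almost touching.

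**Figure D2:**
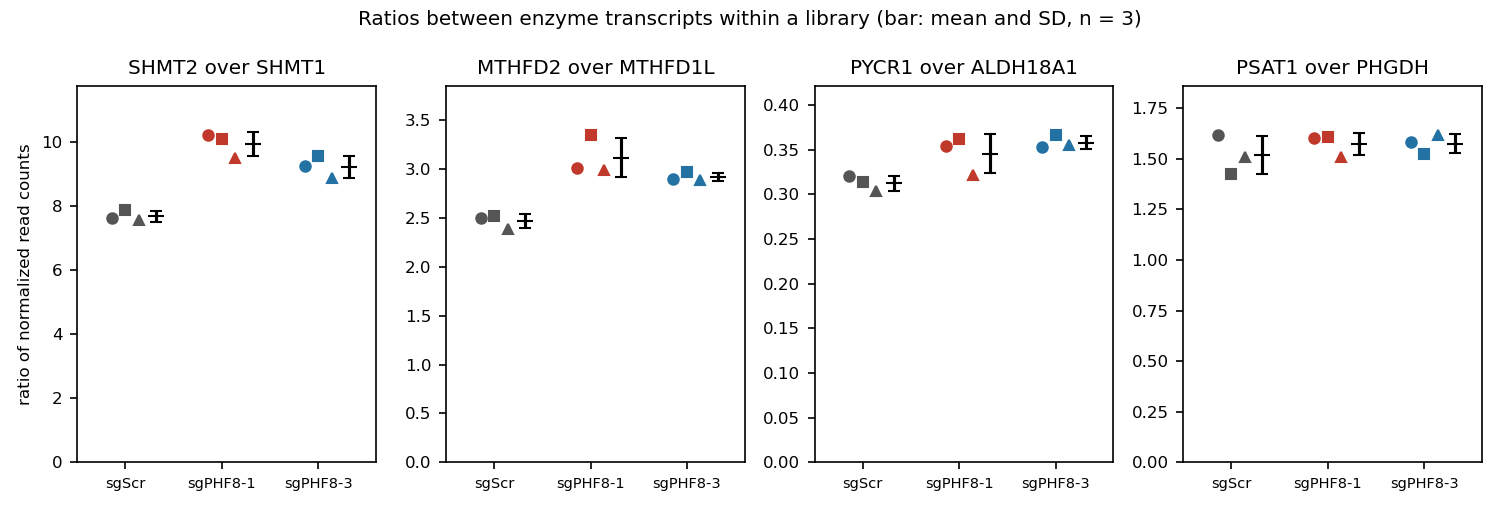
Ratios of normalized read counts between 2 enzyme genes in the same library (y axes, from 0) for sgScr, sgPHF8-1 and sgPHF8-3 (x axes; circle A, square B, triangle C), with the mean and SD of 3 libraries as a black bar. The SHMT2 to SHMT1 ratio was 7.57 to 7.89 in the control and at least 8.88 in every guide library, whereas the PSAT1 to PHGDH ratios overlapped.

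All 8 called genes had control and guide libraries that did not overlap, and SHMT1 added a ninth gene, in the lower direction, with sgPHF8-1. Over all genes tested, 42.2% did not overlap in the sgPHF8-1 comparison and 36.5% in the sgPHF8-3 comparison. The genes that kept their call with both guides in all 16 alternatives (7 other settings and leaving out each of 9 libraries) were PHGDH, PSAT1, SHMT2, MTHFD2 and ASNS. The alternatives use the same libraries on which the genes were chosen, so this describes the dependence on processing and adds no support. PSPH and MTHFD1L did not, and neither did PYCR1 with sgPHF8-1. DESeq2 called 5 of the 10 with sgPHF8-1 and 6 with sgPHF8-3, without PSPH and MTHFD1L in either and without PYCR1 in the former. Without sgScr A the counts were likewise 5 and 6.

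**Figure D3:**
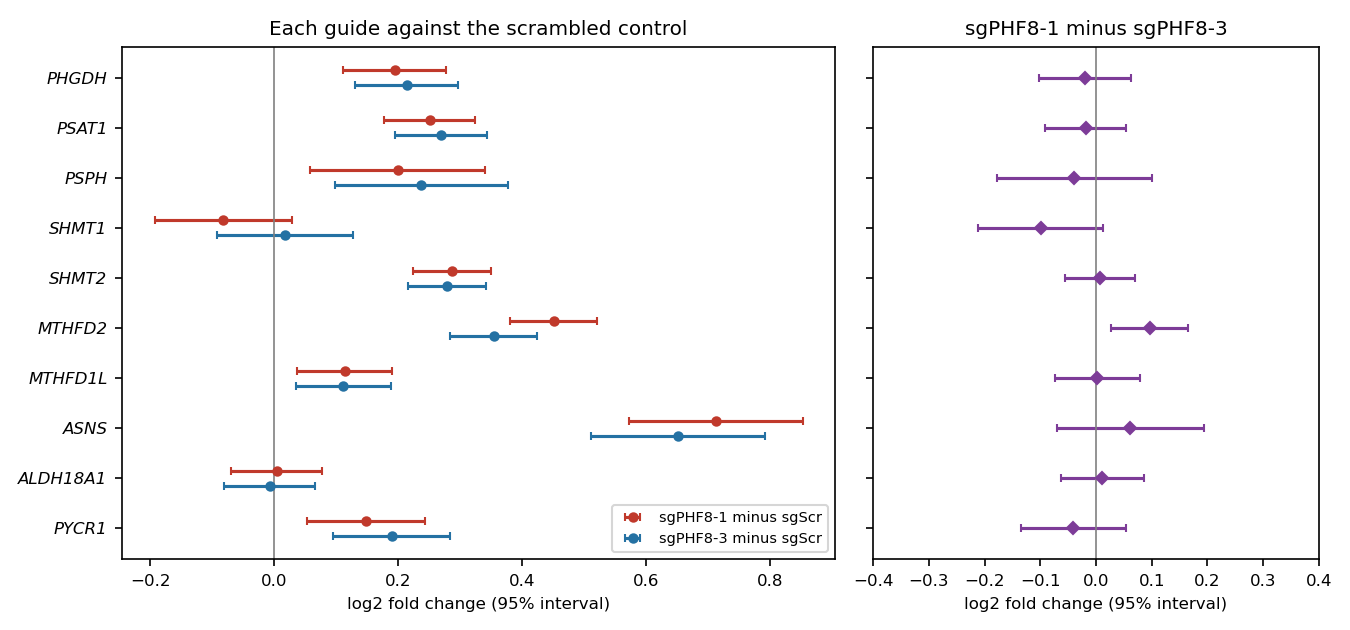
Log2 fold changes (x axes) of the 10 enzyme genes from the edgeR fit, with 95% intervals: each guide minus sgScr on the left, sgPHF8-1 minus sgPHF8-3 on the right. ASNS lies near 0.7 with both guides, SHMT1 and ALDH18A1 have intervals across 0, and in the right panel only the MTHFD2 interval (0.03 to 0.17) leaves out 0.

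Although PHF8 transcript differed between the guides, none of the 10 enzyme genes was called between sgPHF8-1 and sgPHF8-3 by edgeR (background 10.6% of all genes, 4.74% higher and 5.83% lower). DESeq2 and limma also called 0. One gene, MTHFD2, had an unadjusted p under 0.05, beside 24% of all genes tested. MTHFD2 was 0.10 higher on the log2 scale in sgPHF8-1 (95% interval 0.03 to 0.17, adjusted p = 0.0678 by the edgeR quasi-likelihood test), and it was the 1 gene of the 10 whose guide libraries did not overlap (25.3% of all genes). The difference without sgPHF8-1 B was 0.05. For SHMT1 the difference was -0.10 (-0.21 to 0.01), and for ASNS 0.06 (-0.07 to 0.19). Over the 10 genes the intervals ran from -0.21 at the lowest to 0.19 at the highest, so differences of up to about that size between the guides are not shut out.

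Compared per kilobase of the canonical transcript (GENCODE, GRCh37), the levels in sgScr were highest for SHMT2, at 1958 ± 22.7 normalized counts per kb (SD, n = 3). PSAT1 followed at 1113 ± 5.53 and PHGDH at 869 ± 58.3. MTHFD2 (715 ± 1.53) and ALDH18A1 (703 ± 29.0) overlapped. Lower levels were found for MTHFD1L (370.0 ± 11.2), PYCR1 (324 ± 5.68) and SHMT1 (217 ± 2.82). ASNS (189.8 ± 14.5) and PSPH (175 ± 5.31) overlapped at the bottom. With either guide ASNS stood above SHMT1, at 312 ± 33.0 per kb against 205 ± 4.51 in sgPHF8-1 and 298 ± 18.9 against 219.9 ± 10.2 in sgPHF8-3, and MTHFD2 stood above ALDH18A1. The order uses 1 transcript length per gene.

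Sequence shared with other genes can blur counts of 50-base reads. Of all 50-base runs in the canonical transcript, 9.25% in PSPH, 4.68% in PSAT1, 3.17% in MTHFD2, 2.54% in SHMT1, 2.4% in ASNS and 0.206% in MTHFD1L also lay in a transcript of another gene of the raw table, and none did in PHGDH, SHMT2, ALDH18A1 or PYCR1. Raw counts of such partners were 0 in every library for PSPHP1 and 4 to 9 for ASNSP1. PSPH had 158 partners. Of these, TYRO3 shared 25 of the 50-base runs of PSPH and held 961 to 1143 raw counts. For partners in the raw table, the PSPH counts are therefore the least certain of the 10. When genes without a raw row were included, 2325 of the 2336 runs of ASNS lay in a transcript of another annotated gene. The effect of that overlap on the ASNS counts was not tested.

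The other genes around these pathways were read from 7 lists set by function, with 81 of 98 genes tested. In the 6 metabolic lists, which hold none of the 10 genes, 16 of 66 were called higher and 4 lower with sgPHF8-1 (15.2% and 15.7% of all genes), and 10 higher and 1 lower with sgPHF8-3 (9.48% and 9.78%). Their medians were 0.03 and 0.03 on the log2 scale, against 0.20 and 0.23 for the 10 enzymes.

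Of 18 other folate genes tested, ALDH1L2 and SLC25A32 rose with both guides, and FPGS, which adds glutamate to folate, fell with sgPHF8-1. Among all genes, 15.2% were called higher and 15.7% lower with sgPHF8-1, and 9.48% and 9.78% with sgPHF8-3. The counts are therefore no result about this list, whose median log2 fold changes were -0.01 and 0.01. ALDH1L2, the mitochondrial formyltetrahydrofolate dehydrogenase, went from 66.0 to 77.9 normalized counts in sgScr to 104 to 127 in sgPHF8-1 and 112 to 123 in sgPHF8-3. Its log2 fold changes were 0.63 ± 0.127 (SE; edgeR adjusted p = 0.000415) and 0.71 ± 0.125 (adjusted p = 0.000184). SLC25A32, the mitochondrial folate carrier, rose by 0.20 and 0.22. MTHFD1, the cytosolic counterpart of the mitochondrial MTHFD enzymes, had values of -0.01 and 0.02, and MTHFD2L, a paralogue of MTHFD2, had 0.11 and 0.09; neither passed. SLC25A32, MTHFD1 and MTHFD2L were singled out after their values were seen.

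Among 9 other serine and glycine genes, SFXN1, a mitochondrial serine transporter, rose by 0.13 with sgPHF8-1 (edgeR adjusted p = 0.00229). With sgPHF8-3 its value was 0.09 (adjusted p = 0.0495), a call lost in 12 of the 16 alternatives, DESeq2 and limma among them. AMT, of the glycine cleavage system, fell with sgPHF8-1 (-0.46, adjusted p = 0.0454; 0.157 with DESeq2 and lost in 6 of the 9 fits without 1 library), and SFXN3 fell with sgPHF8-3. Of 12 methionine cycle and transsulfuration genes 5 rose and 1 fell with sgPHF8-1, and CBS alone was called with sgPHF8-3. For both lists the shares over all genes were 15.2% higher and 15.7% lower with sgPHF8-1. With sgPHF8-3 they were 9.48% and 9.78%, so 1 of 12 is near the share of all genes. CBS, which joins homocysteine with serine, went from 219 ± 14.1 (SD, n = 3) in sgScr to 326 ± 19.4 in sgPHF8-1 and 283 ± 12.7 in sgPHF8-3.

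The next counts stand beside 15.2% of all genes called higher and 15.7% lower with sgPHF8-1, and 9.48% and 9.78% with sgPHF8-3. The lists are short, and none was tested as a set. In the proline and ornithine list, 4 of 8 genes rose with sgPHF8-1. With sgPHF8-3 edgeR, DESeq2 and limma called 0 of the 8 and 1 had an unadjusted edgeR p under 0.05. Of 11 genes of asparagine, aspartate, glutamate and glutamine metabolism, 2 rose with both guides, the transaminases GPT2 (0.26 and 0.37) and GOT1 (0.15 and 0.26). The glutamine synthetase gene GLUL fell by 0.13 with sgPHF8-1. The sgPHF8-1 calls of GOT1 and GLUL were each lost in 3 of the 9 fits without 1 library, and that of GLUL also with DESeq2 (adjusted p = 0.0959). Of 8 nucleotide synthesis genes 2 were called with sgPHF8-1 and 4 with sgPHF8-3, each of them higher, with UMPS, the bifunctional enzyme that completes uridylate synthesis, higher with both (0.18 and 0.15). GOT1, GLUL, SFXN1, SFXN3 and UMPS were likewise named with their values known.

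**Figure D4:**
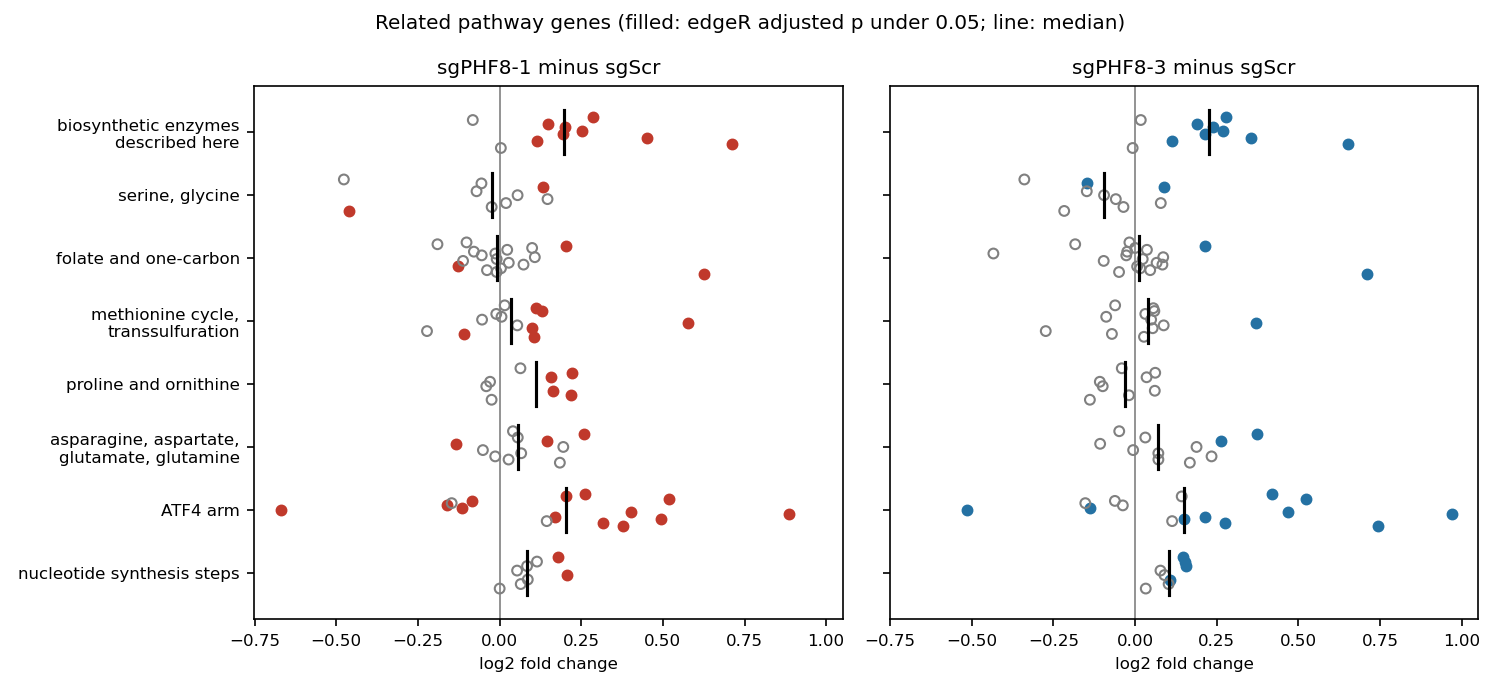
Log2 fold change against sgScr (x axes) of each gene tested in the 10 enzymes and the 7 wider lists (y axis), for sgPHF8-1 on the left and sgPHF8-3 on the right; filled points have an edgeR adjusted p under 0.05, open points do not, and a black line marks each median. Medians of the 10 enzymes were 0.20 and 0.23, and those of the ATF4 arm 0.20 and 0.15.

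Regulators and partners of the ATF4 arm were measured beside the enzymes. ATF4 itself lay between 7430.2 and 7590.0 normalized counts in sgScr, 9110 and 9740 in sgPHF8-1, and 8736 and 9297 in sgPHF8-3. It rose by 0.32 and 0.27 on the log2 scale (edgeR adjusted p = 1.19e-08 and 3.45e-07). CHAC1, a glutathione-degrading enzyme, had the greatest difference of the list, at 65.3 ± 4.57 in sgScr (SD, n = 3), 121 ± 8.26 in sgPHF8-1 and 128 ± 8.87 in sgPHF8-3, or 0.89 and 0.97 on the log2 scale. Of the 15 genes, 9 rose and 4 fell with sgPHF8-1, and 8 rose and 2 fell with sgPHF8-3. Besides DDIT4, the genes that fell were all of the EIF2AK family, EIF2AK2 among them with sgPHF8-1 (-0.16). DESeq2 called 9 of the 15 with each guide, and limma 13 and 10. With sgPHF8-1 edgeR called 25 genes of the 7 lists higher and 8 lower, and DESeq2 21 higher and 2 lower. Over all genes tested, 15.2% were called higher and 15.7% lower with sgPHF8-1, and 9.48% and 9.78% with sgPHF8-3.

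The stress phosphatase subunit PPP1R15A (0.52 and 0.52), the transcription factors DDIT3 (0.40 and 0.47), ATF3 (0.38 and 0.74) and CEBPB (0.49 and 0.15), and TRIB3 (0.26 and 0.42), a pseudokinase that binds ATF4, rose with both guides. SESN2, a leucine sensor of the mTORC1 pathway, rose with sgPHF8-1 (0.20, edgeR adjusted p = 0.0351) and stood at 0.14 (adjusted p = 0.185) with sgPHF8-3. Its sgPHF8-1 call was lost with DESeq2 (adjusted p = 0.114) and with no filter on low counts (edgeR adjusted p = 0.0658). It was also lost in 3 of the 9 fits without 1 library. DDIT4, an inhibitor of mTORC1 also induced by ATF4, went the other way, from 1853 to 1893 normalized counts in sgScr to 1112 to 1231 in sgPHF8-1 and 1259 to 1391 in sgPHF8-3 (-0.67 and -0.52).

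Over the 9 libraries, the genes whose centred log2 profile lay closest to the mean profile of the 10 enzymes were ALAS1, EXO1, CRIM1, SUPV3L1, EMG1, THAP12, PCNX4 and ASPH. The root mean square difference was 0.0140 for ALAS1, the first enzyme of haem synthesis, and 0.0265 for ASPH. ALAS1 averaged 972 normalized counts in sgScr, 1133 in sgPHF8-1 and 1132 in sgPHF8-3. Of the enzymes themselves, PSAT1 (0.0310) and SHMT2 (0.0345) lay nearest to their common mean, and ASNS (0.226), SHMT1 (0.136) and ALDH18A1 (0.116) farthest from it.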

How the data were processed

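RNA was taken from 3 replicates per guide (3 biological replicates per the study's methods). Whether these were separate transductions is not given in the sources used here, so p-values measure the spread between these libraries. Per the labels and methods, reads were aligned with STAR to hg19 and counted per gene with HTSeq (50-base paired-end reads; strand setting not given in the sources used here). The authors deposited raw counts, and a table of normalized counts, a signal equal to the raw count divided by a DESeq2 size factor per library; 27 symbols there had been turned into dates, none a gene named here. Raw rows were joined to symbols for 55501 of 57736 identifiers.

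Raw counts were tested with edgeR 4.0.16 in R 4.3.3 (TMM scaling, filterByExpr, quasi-likelihood test, 1 fit of 3 groups, Benjamini-Hochberg over 14614 genes, threshold 0.05). Intervals are 95% from the fit. The script was tested on simulated data. Alternatives were DESeq2 1.42.0, limma 3.58.1 on log2(deposited normalized count + 1), median-ratio scaling, other filters, the replicate letter as a block, pairwise fits and leaving out each library. Named were the 10 enzymes, PHF8, per comparison at most 8 called genes of the wider lists with the largest change, ATF4, DDIT3, TRIB3, CHAC1 and SESN2, and the 8 genes closest in profile, with exceptions marked. The members and lists were chosen with earlier results of these data known. The marker PECAM1 was not analysed here. The values of 1 gene of the wider lists are not reported here.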

Additional observations from a re-analysis of the deposited data

Results flagged for a closer look

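For PHF8 and 6 of the 81 tested genes of the wider lists, the effects of the 2 guides differed by the edgeR quasi-likelihood test of the difference itself. Of all genes tested 10.6% were called between the guides. The 6 were 5 of the 15 genes of the ATF4 arm and 1 of the 66 genes of the metabolic lists. DESeq2 called 3 and 0 of these, and limma 4 and 1. The lists were chosen with earlier results known, so the counts carry no test of a list. None of the 10 enzymes was called between the guides by edgeR. On the log2 scale, sgPHF8-1 minus sgPHF8-3 was 0.48 for PHF8 and 0.34 for CEBPB (adjusted p = 1.06e-05). It was -0.37 for ATF3 (adjusted p = 0.0369), -0.16 for TRIB3 (adjusted p = 0.00417) and -0.15 for DDIT4 (adjusted p = 0.0208). It was -0.13 for FPGS (adjusted p = 0.0295) and -0.12 for EIF2AK2 (adjusted p = 0.0383). In CEBPB the sgPHF8-1 libraries held 1137 to 1186 normalized counts and the sgPHF8-3 libraries 849 to 957, and in ATF3 104 to 125 and 140.4 to 166. The calls of ATF3, FPGS, EIF2AK2 and DDIT4 were lost in 4, 4, 5 and 2 of the 9 fits without 1 library, while those of PHF8, CEBPB and TRIB3 remained in all 9. With DESeq2 the calls of FPGS (adjusted p = 0.0790) and EIF2AK2 (adjusted p = 0.0730) were lost as well. That of FPGS was also lost with no filter on low counts (adjusted p = 0.0512), and that of ATF3 with limma (adjusted p = 0.0516). With 3 libraries per group, no test for a single outlying library was made.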

How the results depend on the processing

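Calls against sgScr are listed here as a description of the processing, since the enzymes were chosen with these differences known; those of PHGDH, PSAT1, SHMT2, MTHFD2 and ASNS held with both guides in all 16 alternatives. With DESeq2, 5 enzymes were called with sgPHF8-1, and 1816 genes were called with sgPHF8-3 and 988 between the guides, with 3 of the wider lists' genes (ATF3 had no adjusted p). PSPH and MTHFD1L were lost there with both guides and PYCR1 with sgPHF8-1, and without a filter MTHFD1L was lost with both. The stricter filter called 1 enzyme between the guides, MTHFD2 (adjusted p = 0.0495), and gave MTHFD1L -0.00032 there. ALDH18A1 with sgPHF8-1 turned to -0.0024 with no filter and -0.0071 with the stricter one. Leaving out 1 library gave 3544 to 4642, 1877 to 3430 and 923 to 1467 genes called (sgPHF8-1, sgPHF8-3, between guides), 5 to 8, 6 to 8 and 0 to 1 enzymes, and 22 to 35, 16 to 27 and 3 to 9 genes of the lists. The lowest enzyme count came without sgScr A with sgPHF8-1 and without sgScr A or B with sgPHF8-3, and the 1 enzyme between guides, MTHFD2, came without sgPHF8-1 C. Without sgPHF8-3 B or C, 923 and 983 genes were called between the guides.
Log2 fold changes near zero changed sign when a library was left out: ALDH18A1 from -0.031 to 0.032, -0.041 to 0.021 and -0.017 to 0.030 in the 3 comparisons, SHMT1 from -0.0056 to 0.056 with sgPHF8-3, and between guides SHMT2 from -0.0050 to 0.029, ASNS from -0.020 to 0.12, PSAT1 from -0.052 to 0.0098, PSPH from -0.090 to 0.016 and MTHFD1L from -0.017 to 0.015. The cause was not tested. Same-letter libraries did not deviate together (9 correlations from -0.0818 to 0.0516). This cannot tell whether libraries of a letter were handled together. With the letter as a replicate block, 8, 8 and 0 enzymes and 4395, 2698 and 1481 genes were called. The edgeR calls of AMT with sgPHF8-1 (adjusted p = 0.0510) and SFXN1 with sgPHF8-3 (adjusted p = 0.0628) were lost there. Between the guides the interval of PSPH, the least abundant enzyme, was -0.18 to 0.10 and that of SHMT2, the most abundant, -0.05 to 0.07; the part of depth in these widths was not tested.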
